A study of Mus musculus with 12 samples.

Results

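The regional difference within the CD51- sort was measured in 6 of the 12 libraries of the series: the 3 titled hippocampus CD51- astrocyte and the 3 titled cortex CD51- astrocyte. The other 6 are the CD51+ libraries of both regions. All 12 came from mice carrying CD51-Flp and Rosa-CAG-FSF-tdTomato, a reporter in which Flp recombinase removes a stop cassette and so turns on tdTomato permanently. Cells without tdTomato but with GFP were collected by flow sorting as CD51-, and cells with both colours as CD51+. What drives GFP, the animals' age and sex, and whether replicates were separate animals are not given in the sources used here, so p-values measure the spread between these libraries, which may be technical. The sort separates cells by their history of Flp activity, not by CD51 protein on the day. Of 55401 genes in the count table, 12613 passed the filter on low counts and were compared.

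CD51 is the alpha-v integrin, encoded by Itgav. It pairs with a beta subunit, binds proteins with an Arg-Gly-Asp motif and, with beta-8 on astrocytes, releases active TGF-beta from its latent complex. Astrocytes clear glutamate, buffer potassium and feed neurons, and they differ between forebrain regions in transcription factors inherited from the progenitor field and in genes such as Gfap, which hippocampal astrocytes are known to express more than cortical grey-matter astrocytes. The hippocampus also borders the lateral ventricle, which is lined by ciliated ependymal cells and holds the choroid plexus, the secretory epithelium that makes cerebrospinal fluid.

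The names in the library descriptions carry G for libraries titled CD51+ and GT for those titled CD51-, which could be read as the opposite classes. The regional direction does not depend on this, and the titles are used throughout. Total counts per CD51- library were 7092606 to 8588717, and mitochondrial transcripts took 20.2% to 38.6% of them, the highest share in cortex library 3. Among the CD51+ libraries, which entered the same fit, cortex CD51+ library 3 stood apart. Mitochondrial transcripts took 71.1% of its counts. Mitochondrial ribosomal RNA alone took 58.4%, against 1.04% to 3.54% in the other libraries. Levels are given in CPM, a gene's counts relative to the library total after scaling by the trimmed mean of M values. Across genes, log-CPM profiles of libraries correlated at 0.611 to 0.676 within cortex, at 0.62 to 0.65 within hippocampus and at 0.549 to 0.645 between regions. Among the CD51- libraries the Y-linked Ddx3y had counts in cortex library 3 alone, at 56.7 CPM, while Xist stood at 1322 to 3566 CPM in all 6. Of 6 sex-linked genes listed, Xist, its antisense Tsix and Y-linked genes, 4, 2 and 5 had counts in cortex libraries 1 to 3. In hippocampus libraries 1 to 3 it was 1, 2 and 4. Y-linked genes other than Ddx3y thus also had counts in cortex library 1 and hippocampus library 3. The common biological coefficient of variation was 1.28. Over all genes tested the median log2 fold change, hippocampus minus cortex, was 0.12 (0.02 with median-of-ratios scaling, 0.38 in limma-voom), and differences are read relative to it.

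The astrocyte label was checked against markers. The summed level of 20 pan-astrocyte genes was 5832, 6326 and 16127 CPM in the cortex CD51- libraries and 15730, 18589 and 15797 CPM in hippocampus. It was 64502 to 85760 CPM in cortex CD51+ and 53820 to 69212 CPM in hippocampus CD51+. Myelinating-oligodendrocyte genes summed to 34036, 33277 and 64140 CPM in the cortex CD51- libraries and to 38211, 25534 and 6979 CPM in hippocampus, against 1307 to 5064 CPM in CD51+. Homeostatic microglial genes summed to 14146, 14993 and 10963 CPM in cortex CD51- and to 6634, 9913 and 10453 CPM in hippocampus, against 235 to 2101 CPM in CD51+. The CD51- libraries thus held much RNA that marks oligodendrocytes and microglia, and cortex library 3 and hippocampus library 3 stood apart in their myelin sums. The part of these cells' RNA in the regional differences was not tested, and in bulk RNA fewer cells of a type cannot be told apart from less RNA per cell.

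**Figure D1:**
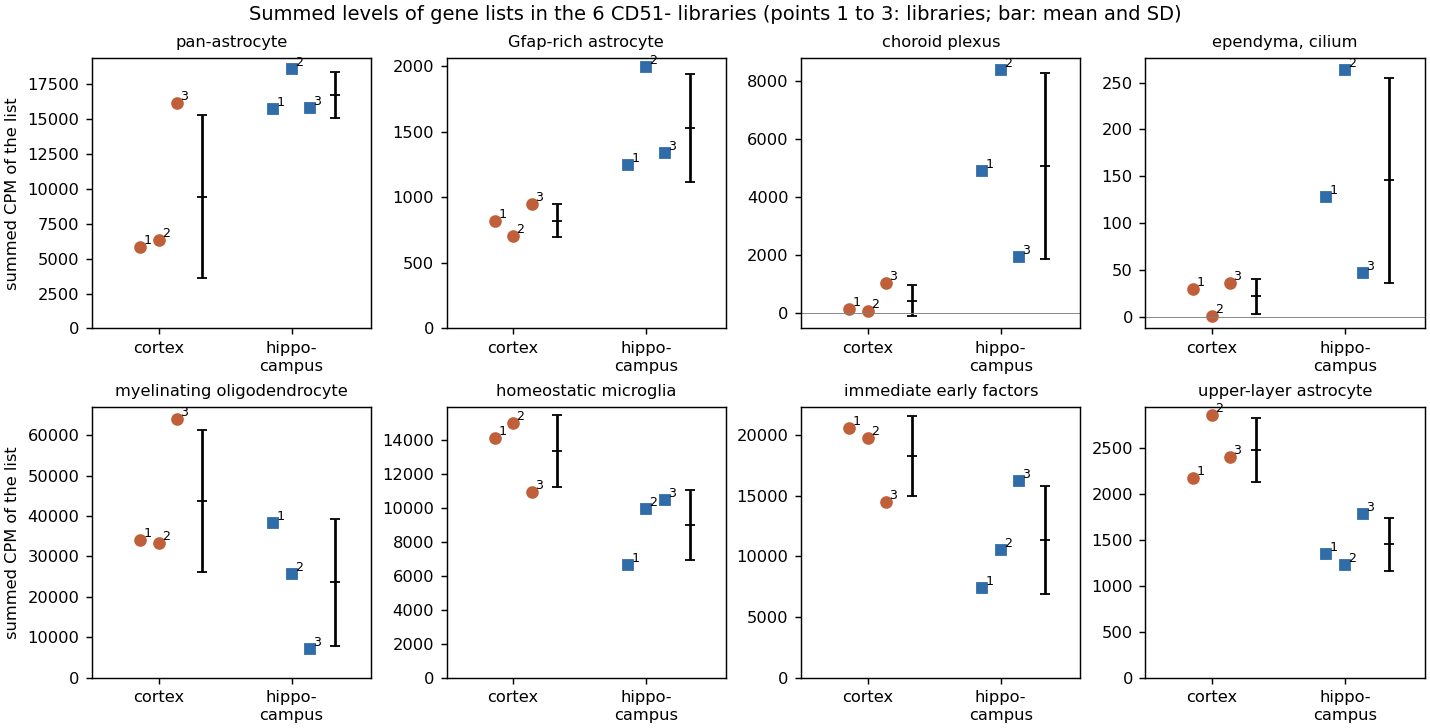
Summed CPM of 8 gene lists (y axis, linear, from 0) in the 3 cortex and 3 hippocampus CD51- libraries, with the library number beside each point and the mean and SD beside each group. Choroid plexus sums were 94.8 to 1050 CPM in cortex and 1951 to 8361 CPM in hippocampus, and the upper-layer astrocyte sums, 2180 to 2864 CPM in cortex and 1227 to 1783 CPM in hippocampus, overlap once Nfe2l2 is left out.

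Itgav itself did not separate the regions within CD51-. It stood at 358, 248 and 326 CPM in cortex and at 223, 565 and 356 CPM in hippocampus. The ranges overlapped, and hippocampus libraries held both the lowest and the highest value. The log2 fold change was 0.29 ± 0.55 (SE), with an adjusted p of 0.928 in edgeR's quasi-likelihood test. An exact two-sided permutation test over the 3 against 3 libraries gave p = 0.7, where the smallest possible is 0.1. Without hippocampus library 2 the log2 fold change was -0.11.

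No gene passed an adjusted p of 0.05 between hippocampus and cortex CD51- in edgeR's quasi-likelihood test (0 of 12613, 0%, in either direction). The smallest adjusted p was 0.0851. At an unadjusted p under 0.05, 1301 genes were higher in hippocampus (10.3%) and 363 lower (2.88%). DESeq2 called 567 genes higher (4.5%) and 139 lower (1.1%), and limma-voom called 96 higher (0.761%) and 13 lower (0.103%). Of limma-voom's 109 calls, 87 were also DESeq2 calls. In 1313 genes all hippocampus libraries lay above all cortex libraries (10.4%), and in 536 all lay below (4.25%). The count rested on single libraries: edgeR called 68 genes without cortex library 3, 24 without hippocampus library 3, 5 without cortex library 1 and 1 without cortex library 2. Ranges that did not overlap numbered 2218 higher and 1195 lower without cortex library 3, and 2109 higher and 1085 lower without hippocampus library 3, both chosen after the data were seen. Of 98 genes named by rule beside Itgav, 18 passed in edgeR without cortex library 3 and 11 without hippocampus library 3.

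On the higher side 15 genes were taken by lowest p among those with separate ranges and a hippocampus mean of at least 20 CPM. Their edgeR adjusted p-values were 0.0851 to 0.099, so none passed that test. All 15 passed in DESeq2 and 11 in limma-voom, against 4.5% and 0.761% of all genes called higher. The choice by low p and separate ranges in the same counts favours such calls. The 15 included a motile-cilium protein, secreted and matrix proteins, signalling enzymes and a sterol enzyme. In 7 of them the 3 cortex libraries had no count at all, and their folds are lower limits set against 3 counts over the group.

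Rsph4a (chromosome 10, 33905111 to 33916021, plus strand, mm10) encodes a radial spoke head protein of motile cilia. It had no count in cortex and stood at 77.5, 50.1 and 77.6 CPM in hippocampus, at least 621-fold higher, with an adjusted p of 2.28e-09 in DESeq2 and 0.00123 in limma-voom. Its hippocampus values were among the most even of the group, and in CD51+ it also had no count in cortex and stood at 6.65, 7.51 and 32 CPM in hippocampus. Col8a1 (chromosome 16, 57624258 to 57754737, minus strand), a chain of the short-chain collagen VIII, had no count in cortex and stood at 116, 27.8 and 88.8 CPM, at least 714-fold higher (adjusted p of 2.02e-07 in DESeq2 and 0.00628 in limma-voom). In CD51+ hippocampus it reached 5.53 CPM at most. Clic6, a chloride intracellular channel family member, had no count in cortex and stood at 157, 36.7 and 7.24 CPM, at least 632-fold higher (adjusted p of 5.49e-07 in DESeq2 and 0.0235 in limma-voom). Its hippocampus libraries differed among themselves more than those of Rsph4a.

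Secreted and matrix proteins made up several of the others. Fstl1 (chromosome 16, 37776873 to 37836514, plus strand), a follistatin-like secreted glycoprotein, stood at 0.0844, 0 and 0.292 CPM in cortex and at 31.6, 21.1 and 26.7 CPM in hippocampus. The pooled ratio was 241 (95% counting interval 82.1 to 1169), and the adjusted p was 1.46e-07 in DESeq2 and 0.0235 in limma-voom. In CD51+ its ranges overlapped, at 29.9 to 98.4 CPM in cortex and 17.2 to 82.8 CPM in hippocampus, so the near absence was in cortex CD51-. Slit2 (chromosome 5, 47983138 to 48307733, plus strand), a ligand of Robo receptors in axon guidance, stood at 0, 0 and 0.146 CPM in cortex and at 30.4, 60.4 and 12 CPM in hippocampus. Its pooled ratio was 918 (95% counting interval 164 to 36280), with an adjusted p of 5.97e-07 in DESeq2 and 0.0131 in limma-voom. Slit2 had the same regional order in CD51+, with no count in cortex and 54.6, 44 and 139 CPM in hippocampus. A2m, the broad protease inhibitor alpha-2-macroglobulin, stood at 0, 0 and 0.146 CPM in cortex and at 45.3, 108 and 5.71 CPM in hippocampus (adjusted p of 5.88e-08 in DESeq2 and 0.0235 in limma-voom). Lama2, the laminin alpha-2 chain of basement membranes, was one of 3 of these 15 with counts in every cortex library: 9.2, 7.19 and 1.9 CPM against 82.4, 51.8 and 122 CPM. Its log2 fold change was 3.80 ± 0.82 (SE), with an adjusted p of 0.0906 in edgeR, 1.24e-04 in DESeq2 and 0.0959 in limma-voom.

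The remaining genes of this set were enzymes and regulators. Maob, the monoamine oxidase that astrocytes use to break down amines, had no count in cortex and stood at 2.14, 39.5 and 23.9 CPM in hippocampus, at least 190-fold higher (adjusted p of 5.97e-07 in DESeq2 and 0.0452 in limma-voom). Nsdhl, a dehydrogenase of cholesterol synthesis, had no count in cortex and stood at 19.2, 27.3 and 34.2 CPM, at least 240-fold higher (adjusted p of 1.46e-07 in DESeq2 and 0.0116 in limma-voom). Gucy1a1, a subunit of the nitric-oxide-sensitive guanylate cyclase, had no count in cortex and stood at 81.6, 16.6 and 2.72 CPM, at least 319-fold higher. These genes were not absent from cortex CD51+: Maob stood at 13.8 to 121 CPM there, Nsdhl at 25.4 to 71.8 CPM and Gucy1a1 at 15.4 to 59.5 CPM. Spred2, an inhibitor of Ras-ERK signalling, stood at 1.43, 0.599 and 0.584 CPM in cortex and at 179, 132 and 47.5 CPM in hippocampus, a log2 fold change of 7.05 ± 1.45 (SE) with an adjusted p of 2.5e-06 in DESeq2 and 0.0959 in limma-voom. Fxyd1, the phospholemman regulator of the sodium pump, stood at 0, 0 and 0.584 CPM against 33.8, 21.6 and 6.79 CPM. Its pooled ratio was 143 (95% counting interval 55.7 to 527). Fxyd1 passed in edgeR without cortex library 3 (adjusted p of 0.00682). That library held its only cortex counts, so leaving it out widens the gap by construction. Papss2, which makes the sulfate donor for proteoglycans, stood at 2.45, 0.24 and 0.146 CPM against 5.99, 23.4 and 44.2 CPM, a log2 fold change of 4.62 ± 0.98 (SE).

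**Figure D2:**
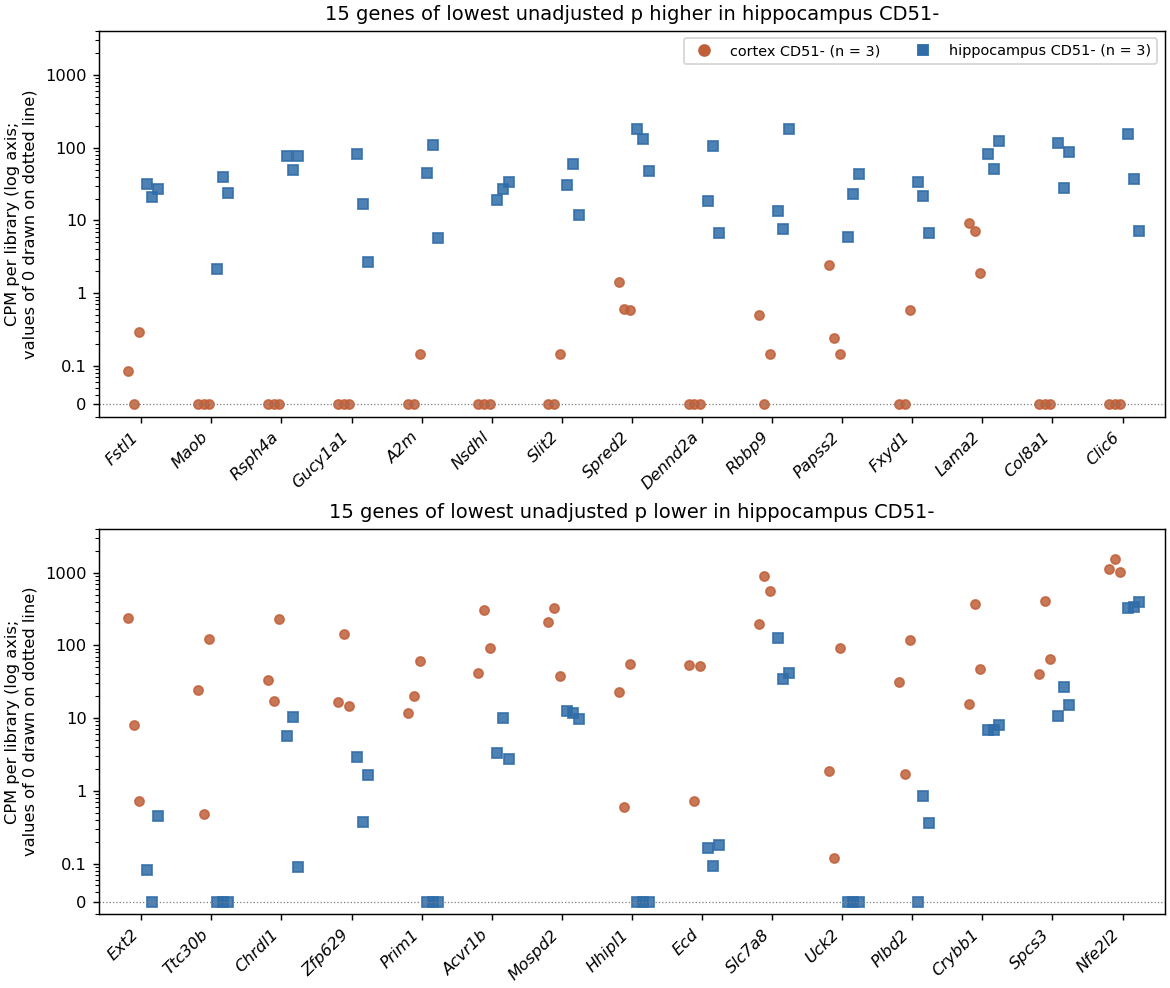
CPM in each of the 6 CD51- libraries (y axis, log scale, with values of 0 on the dotted line) for the 15 genes of lowest p in each direction (x axis). These were taken among genes with separate ranges and a mean of at least 20 CPM in the higher group. The 15 higher genes lie below 10 CPM in every cortex library, with Rsph4a at 50.1 to 77.6 CPM in hippocampus, whereas the lower genes are more scattered in cortex, as for Ext2 from 0.729 to 241 CPM.

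On the lower side the 15 genes of lowest p, chosen in the same way, had edgeR adjusted p-values of 0.125 to 0.233. DESeq2 called 13 of them and limma-voom 2, Prim1 and Nfe2l2, against 1.1% and 0.103% of all genes called lower. The choice from the same counts again favours such calls. In 5 of the 15 a cortex library stood below 1 CPM, so the higher group was itself uneven. Nfe2l2 (chromosome 2, 75675513 to 75704641, minus strand), the NRF2 factor of the antioxidant response, was the most even: 1123, 1533 and 1010 CPM in cortex and 331, 339 and 391 CPM in hippocampus. Its log2 fold change was -1.79 ± 0.57 (SE), with an adjusted p of 0.233 in edgeR, 0.0732 in DESeq2 and 0.0131 in limma-voom. In CD51+ it stood at 314, 89.5 and 276 CPM in cortex and at 103, 47.2 and 97.5 CPM in hippocampus. Chrdl1 (chromosome X, 143285674 to 143394262, minus strand), a BMP antagonist that astrocytes secrete, stood at 33.3, 17.1 and 232 CPM in cortex and at 5.58, 10.5 and 0.0906 CPM in hippocampus. The log2 fold change of Chrdl1 was -4.12 ± 1.07 (SE), with an adjusted p of 0.15 in edgeR, 0.00301 in DESeq2 and 0.202 in limma-voom. Without cortex library 3 the log2 fold change of Chrdl1 was -2.29 (adjusted p of 0.277 in edgeR). In CD51+ the levels of Chrdl1 were higher and its log2 fold change nearly equal, -4.14, at 568, 513 and 689 CPM in cortex and 31.2, 42.1 and 27.1 CPM in hippocampus.

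Several other lower genes have known roles. Slc7a8, a transporter of large neutral amino acids, stood at 197, 894 and 562 CPM in cortex and at 125, 34.8 and 41.4 CPM in hippocampus, a log2 fold change of -3.03 ± 0.94 (SE) with an adjusted p of 0.0188 in DESeq2. In CD51+ it did not exceed 1.01 CPM in any library. Acvr1b, a type I activin receptor, stood at 41.5, 309 and 93.2 CPM in cortex and at 3.28, 10 and 2.72 CPM in hippocampus (adjusted p of 3.49e-04 in DESeq2). Prim1, the catalytic DNA primase subunit, stood at 11.6, 19.8 and 60.7 CPM in cortex and had no count in hippocampus, at least 301-fold lower (adjusted p of 2.92e-05 in DESeq2 and 0.0131 in limma-voom). Crybb1, a crystallin also made by microglia, stood at 15.8, 367 and 47.3 CPM against 6.82, 6.87 and 8.06 CPM (adjusted p of 0.00391 in DESeq2). Its log2 fold change was -4.30 in edgeR and -2.06 without cortex library 2, the highest of a wide cortex range. Ext2, a polymerase of heparan sulfate, stood at 241, 8.15 and 0.729 CPM against 0.0821, 0 and 0.453 CPM, with cortex library 1 far above the other two. The log2 fold change of Ext2 was -8.75, and -4.50 without that library.

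Many genes were present in one region's libraries and not in the other's. Of the genes tested, 877 had no count in the 3 cortex libraries, and 42 of these averaged at least 20 CPM in hippocampus, 40 of them with counts in all 3 hippocampus libraries. In the other direction 227 had no count in hippocampus, and 7 of these averaged at least 20 CPM in cortex, 6 of them with counts in all 3 libraries. Cortex libraries also held fewer detected nuclear genes: 13736, 12290 and 12436 against 15147, 14875 and 15395 in hippocampus. Thinned to the same 4352335 nuclear counts, the expected numbers were 12695, 11247 and 11699 in cortex and 14125, 13770 and 14284 in hippocampus. Of 4025 genes at 50 CPM or more in at least 1 cortex library, 496 (12.3%) stood below 1 CPM in another, against 211 of 3689 (5.72%) in hippocampus. The part of this lower detection in the regional differences was not tested.

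**Figure D3:**
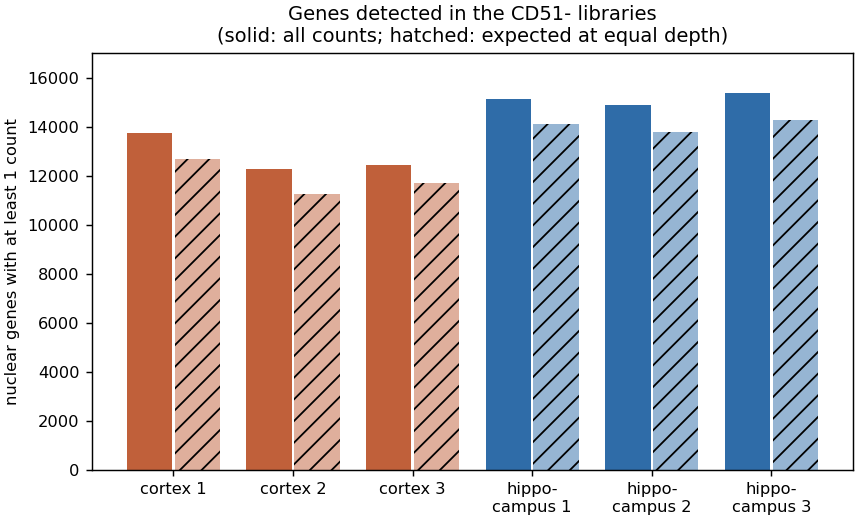
Number of nuclear genes with at least 1 count (y axis) in each CD51- library (x axis), over all counts (solid bars) and as the number calculated after thinning to 4352335 nuclear counts (hatched bars). All 3 hippocampus libraries lie above all 3 cortex libraries in both, at 13770 to 14284 against 11247 to 12695 after thinning.

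Choroid plexus markers held the largest share of separate ranges among the 39 lists. Of 11 tested, 8 lay higher in hippocampus without overlap, against 10.4% of all genes, and none lower. DESeq2 and limma-voom each called 3 higher, against 4.5% and 0.761% of all genes. The median fitted log2 fold change was 5.91, or 4.13 with the 5 genes that had no cortex count at their lower limits, against 0.12 over all genes. Here and in the other lists, the filter on low counts could admit genes through a single region's libraries. Genes with no cortex count could not come out lower, whatever their hippocampus level. In CD51+ the sum of these markers was 105, 275 and 108 CPM in cortex and 882, 3089 and 3408 CPM in hippocampus. Ttr (chromosome 18, 20665280 to 20674321, plus strand), the thyroxine carrier that dominates choroid plexus mRNA, stood at 90, 2.16 and 431 CPM in cortex and at 2584, 5381 and 1215 CPM in hippocampus. Its log2 fold change was 4.13 ± 1.02 (SE), with an adjusted p of 0.125 in edgeR, 0.00558 in DESeq2 and 0.266 in limma-voom. In CD51+ it stood at 53.1, 35.9 and 23.9 CPM in cortex and at 444, 1969 and 1945 CPM in hippocampus, the same order. Slc4a5, a bicarbonate transporter of that epithelium, had no count in cortex and stood at 14, 32.7 and 8.78 CPM in hippocampus, at least 164-fold higher (adjusted p of 4.47e-05 in DESeq2 and 0.0123 in limma-voom). Kcnj13, its potassium channel, had no count in cortex and stood at 26.7, 1.95 and 3.08 CPM (adjusted p of 0.0565 in DESeq2 and 0.0458 in limma-voom). Enpp2, the lysophospholipase autotaxin, which oligodendrocytes also make, stood at 31.1, 36.5 and 548 CPM in cortex and at 1565, 2449 and 628 CPM in hippocampus (adjusted p of 0.0616 in DESeq2). Otx2 and Kl overlapped: Otx2 stood at 20.1 CPM in cortex library 3 and at 7.97 CPM in hippocampus library 3.

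Genes of ependyma and motile cilia showed the same regional order from low levels. All 9 tested had positive log2 fold changes, with a median of 4.53. For 2 of them, with no count in cortex CD51-, a negative sign was not possible, and the filter could admit genes through hippocampus libraries alone. Of these, 3 lay higher without overlap, 3 were called higher by DESeq2 and 1 by limma-voom. Over all genes tested the shares were 10.4%, 4.5% and 0.761%. Rsph4a, described above, is a gene of the same structure but was not on the list. Hydin (chromosome 8, 110266977 to 110610253, plus strand), of the central pair of motile cilia, had no count in cortex and stood at 8.79, 60.7 and 8.87 CPM in hippocampus, at least 228-fold higher (adjusted p of 2.47e-04 in DESeq2 and 0.0202 in limma-voom). Dnah11, an axonemal dynein heavy chain, had no count in cortex and stood at 24.2, 2.14 and 8.24 CPM, at least 109-fold higher (adjusted p of 0.00103 in DESeq2). Tekt1, a protein of the ciliary doublet microtubules named here after its values were seen, stood at 0.675, 0 and 0 CPM in cortex and at 5.09, 11.2 and 0.815 CPM in hippocampus. Hydin and Dnah11 thus lacked counts in cortex CD51- altogether, and Tekt1 had them in cortex library 1 alone. In CD51+ the list sums overlapped, at 64.1, 57.2 and 2.84 CPM in cortex and 17.2, 22.1 and 166 CPM in hippocampus. There 3 of the 9 genes lay higher without overlap and 1 lower, against 7.54% and 5.97% of all genes. Dnah11 overlapped in CD51+, at 0.336, 47.7 and 1.22 CPM in cortex and 7.34, 1.21 and 15.7 CPM in hippocampus.

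RFX factors regulate many motile-cilium genes through X-box sites, and the promoters of these genes were searched for the X-box half-site GTTGCC on both strands (GGCAAC on the other). Promoter sequences, from 250 bases before to 50 after the annotated start, came from RefSeq on GRCm38.p6 and matched 7 of the 9 tested genes. These genes had 10 promoters, of which 4 held the half-site, 1 each of Hydin, Tekt1, Ccdc153 and Spag16, against 4111 of all 32851 promoters (12.5%). By gene it was 4 of 7 against 3821 of all 27025 genes (14.1%). A match describes the letters and not a binding site. Of the 3 genes that did not overlap, 2 held it, and both are shown because they carry the regional difference above, with each match in capitals.
Hydin, chr8:110266727-110267026, plus strand: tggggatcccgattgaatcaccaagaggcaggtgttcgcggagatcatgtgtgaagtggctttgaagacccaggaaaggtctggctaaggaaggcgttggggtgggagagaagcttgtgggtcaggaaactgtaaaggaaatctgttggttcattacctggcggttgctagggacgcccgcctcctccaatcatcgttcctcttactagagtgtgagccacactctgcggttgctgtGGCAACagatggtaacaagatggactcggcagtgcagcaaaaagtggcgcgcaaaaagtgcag
Tekt1, chr11:72361833-72362132, minus strand: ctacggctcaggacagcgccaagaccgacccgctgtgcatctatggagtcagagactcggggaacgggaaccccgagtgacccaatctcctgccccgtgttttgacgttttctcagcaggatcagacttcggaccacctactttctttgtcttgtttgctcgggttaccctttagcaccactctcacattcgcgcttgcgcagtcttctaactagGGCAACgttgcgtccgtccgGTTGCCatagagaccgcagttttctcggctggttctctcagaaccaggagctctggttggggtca
Hydin has 1 match, on the other strand, and Tekt1 has 2, one on each strand. Dnah11, the third gene without overlap, had no match in this window, nor did the second annotated start of Tekt1.

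Microglial, myelin and neuronal markers ran the other way in their medians. Homeostatic microglial genes had a median log2 fold change of -0.63, with 5 of 18 lower without overlap and none higher. Over all genes tested 4.25% lay lower and 10.4% higher. No homeostatic microglial gene was called by DESeq2 or limma-voom. P2ry12, the purinergic receptor of resting microglia, stood at 2810, 2272 and 1994 CPM in cortex and at 1150, 1834 and 1815 CPM in hippocampus. C1qb, a complement subunit, stood at 500, 683 and 649 CPM against 199, 361 and 274 CPM, a log2 fold change of -1.13 ± 0.83 (SE) and an adjusted p of 0.669 in edgeR. Both were separate by region, but neither passed in edgeR or limma-voom. Mrc1, the mannose receptor of border-associated macrophages, ran the other way, at 58.2, 59.9 and 65.4 CPM in cortex and 164, 232 and 210 CPM in hippocampus (adjusted p of 0.471 in edgeR and 0.131 in limma-voom). Its border-macrophage list split, with 2 of 7 higher and 1 lower without overlap.

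Myelinating-oligodendrocyte genes had a median of -0.76 and none of 15 without overlap. Mbp, myelin basic protein, stood at 24041, 24962 and 50845 CPM in cortex and at 27966, 20907 and 5399 CPM in hippocampus. The highest value was in cortex library 3 and the lowest in hippocampus library 3. The precursor and newly formed oligodendrocyte list had a positive median, 0.92, with 4 of 7 log2 fold changes positive. Olig2, the lineage factor on that list, stood at 0, 0 and 0.146 CPM against 9.12, 0 and 4.62 CPM (adjusted p of 0.00348 in DESeq2). Bcas1, which marks oligodendrocytes that are starting to myelinate, stood at 720, 1167 and 1594 CPM against 626, 381 and 215 CPM and was the 1 member of the list with separate ranges. Rorb, a nuclear receptor of cortical neurons that astrocytes also express, stood at 149, 214 and 139 CPM against 312, 724 and 533 CPM, a log2 fold change of 1.64 ± 0.51 (SE) with an adjusted p of 0.222 in edgeR. Of 14 pan-neuronal genes 1 lay lower and none higher without overlap, their median was -1.06, and their sums overlapped at 308 to 496 CPM in cortex and 171 to 410 CPM in hippocampus. Of 7 endothelial genes 1 was lower without overlap (4.25% of all genes), and of 5 pericyte genes 1 was higher (10.4% of all genes). The pericyte median was nevertheless -1.02 (0.27 in limma-voom), with 3 of 5 negative. The higher pericyte gene was Pdgfrb, the PDGF receptor of pericytes, with no count in cortex and 0.411, 20.2 and 6.61 CPM in hippocampus (adjusted p of 5.19e-05 in DESeq2).

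The astrocyte lists differed among themselves. Of the 20 pan-astrocyte genes 16 had positive log2 fold changes, with a median of 0.56. Among the 20, 3 lay higher without overlap, against 10.4% of all genes. Without hippocampus library 3, 6 of 20 did, against 16.7% of all genes. Without cortex library 3, 11 of 20 did, against 17.6% of all genes, but that library held the highest astrocyte sum of the region, so leaving it out widens the gap by construction. Slc1a2, the main glutamate transporter of astrocytes, stood at 2573, 2769 and 8250 CPM in cortex and at 9540, 10208 and 9392 CPM in hippocampus. Its log2 fold change was 1.10 ± 0.36 (SE), with an adjusted p of 0.242 in edgeR, 0.464 in DESeq2 and 0.942 in limma-voom. Without cortex library 3, its highest cortex value, Slc1a2 had a log2 fold change of 1.84 and an adjusted p of 2.4e-04 in edgeR. Ndrg2, a cytoplasmic astrocyte marker, stood at 217, 83.8 and 210 CPM against 218, 447 and 392 CPM. The defining markers Aqp4, Gja1, Aldoc, Slc1a3, S100b and Aldh1l1 all overlapped between regions. Aqp4, the water channel of end-feet, stood at 116, 215 and 408 CPM in cortex and 404, 766 and 339 CPM in hippocampus.

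The list of fibrous, pial and hippocampal astrocytes rich in Gfap had a median of 3.58, or 2.09 with 4 genes at their lower limits. Of its 17 genes tested, 8 lay higher without overlap and none lower, against 10.4% and 4.25% of all genes. DESeq2 called 5 of the 17 higher and limma-voom 1, against 4.5% and 0.761% of all genes. Gfap (chromosome 11, 102887336 to 102900912, minus strand), the astrocyte intermediate filament, stood at 7.51, 0.24 and 1.31 CPM in cortex and at 26.4, 154 and 74.4 CPM in hippocampus. Its log2 fold change was 4.79 ± 1.19 (SE), with an adjusted p of 0.125 in edgeR, 0.00114 in DESeq2 and 0.135 in limma-voom. In CD51+ its ranges overlapped, at 11.8, 30.7 and 238 CPM in cortex and 210, 366 and 289 CPM in hippocampus. Only cortex CD51+ library 3, rich in mitochondrial ribosomal RNA, reached the hippocampus range. Mgst1, a microsomal glutathione transferase, had no count in cortex and stood at 5.91, 20.2 and 2.17 CPM, at least 83.0-fold higher (adjusted p of 2.46e-05 in DESeq2 and 0.0452 in limma-voom). Igfbp2, an insulin-like growth factor binding protein, is on the neocortical and upper-layer list and not on this one. Igfbp2 stood at 0, 0.12 and 0.292 CPM against 17.5, 52.5 and 1.18 CPM (adjusted p of 8.15e-05 in DESeq2). Tnc, the matrix glycoprotein tenascin-C, stood at 1.86, 0 and 10.5 CPM against 88.5, 16.1 and 43.1 CPM (adjusted p of 0.0534 in DESeq2). The reactive-astrocyte list had a median of 2.80, with 4 of 15 higher without overlap, 4 called by DESeq2 and 1, Emp1, by limma-voom. Over all genes tested these shares were 10.4%, 4.5% and 0.761%. Emp1, a membrane protein of injury-responsive astrocytes, had no count in cortex and stood at 2.05, 64.1 and 5.25 CPM.

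Neocortical and upper-layer astrocyte genes had a median of 0.40 but a lower sum in hippocampus. The sums were 2180, 2864 and 2401 CPM in cortex and 1346, 1227 and 1783 CPM in hippocampus. Of 13 genes 2 lay lower, Nfe2l2 and Chrdl1, both described above, and 1 higher, Igfbp2. Over all genes tested 4.25% lay lower and 10.4% higher. Nfe2l2 carried the difference in the sums: without it they were 1057, 1330 and 1391 CPM in cortex and 1014, 887 and 1392 CPM in hippocampus, which overlap. The pan-astrocyte sum ran the other way in 2 of the 3 cortex libraries.

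Transcription factors of telencephalic patterning had a median of 1.16, with 7 of 20 higher without overlap and none lower. DESeq2 called 4 higher, and edgeR and limma-voom none. Over all genes tested 10.4% lay higher without overlap and DESeq2 called 4.5% higher. Lhx2, a LIM-homeodomain factor of the embryonic hippocampal and cortical fields, stood at 0.844, 4.91 and 7.59 CPM in cortex and at 39.2, 51.3 and 18.8 CPM in hippocampus, a log2 fold change of 3.04 ± 0.89 (SE) with an adjusted p of 0.0176 in DESeq2. In CD51+ the regions overlapped for Lhx2, at 87 to 189 CPM in cortex and 85.6 to 295 CPM in hippocampus. Zic1, a zinc-finger factor of medial structures and meninges, stood at 2.36, 0 and 1.6 CPM against 23.7, 70.9 and 11.6 CPM (adjusted p of 0.0425 in DESeq2). Zic2, its paralogue, had no count in cortex and stood at 20, 5.48 and 0.272 CPM in hippocampus (adjusted p of 0.00236 in DESeq2). Nfib, a nuclear factor I of gliogenesis, stood at 54.3, 7.67 and 50.8 CPM against 149, 201 and 76.1 CPM.

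Stem-cell and newborn-neuron genes of the subgranular zone, the hippocampal niche of adult neurogenesis, had a median of 1.95. Of 11 tested, 4 lay higher without overlap and none lower, against 10.4% and 4.25% of all genes. The list sums overlapped, at 165, 302 and 312 CPM in cortex and 525, 395 and 119 CPM in hippocampus. Sox2, a factor of neural stem cells and of astrocytes, stood at 0.169, 0.12 and 1.46 CPM in cortex and at 12.9, 41.4 and 17.2 CPM in hippocampus. The log2 fold change of Sox2 was 5.36 ± 1.38 (SE), with an adjusted p of 8.15e-05 in DESeq2. In CD51+ the regions overlapped for Sox2, at 26 to 102 CPM in cortex and 23.3 to 61.5 CPM in hippocampus. Eomes, a factor of intermediate progenitors, had no count in cortex or in any CD51+ library and stood at 3.37, 5.29 and 5.52 CPM in hippocampus CD51- (adjusted p of 0.0417 in limma-voom). Its values were low but even. Prox1, the granule-neuron factor on the list of hippocampal excitatory neurons, overlapped, at 7, 535 and 85.9 CPM in cortex and 24.4, 32.7 and 29.2 CPM in hippocampus.

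**Figure D4:**
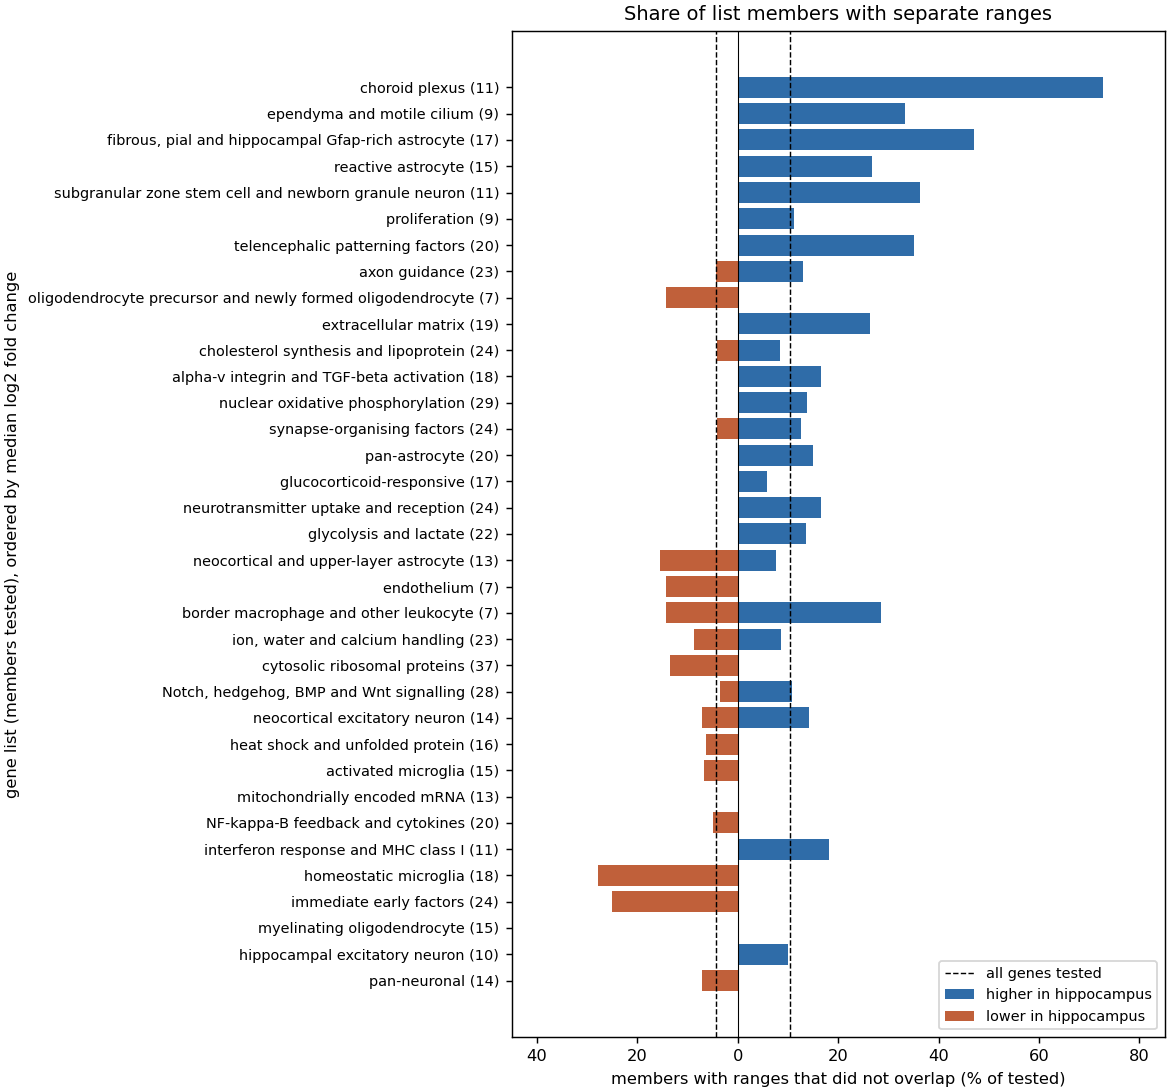
For each gene list with at least 7 tested members, the percent of tested members (x axis) whose 3 hippocampus CD51- libraries all lay above (right) or all below (left) the 3 cortex libraries, with lists ordered by median log2 fold change (y axis). Dashed lines mark 10.4% and 4.25%, the shares over all genes tested, and the choroid plexus bar stands for 8 of 11 genes.

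Genes of astrocyte function were compared by role. For neurotransmitter uptake and reception the median was 0.44, with 4 of 24 higher without overlap, 4 called higher and 2 lower by DESeq2. Over all genes tested these shares were 10.4%, 4.5% and 1.1%. Aldh5a1, which completes GABA breakdown in mitochondria, stood at 9.96, 0.359 and 3.94 CPM in cortex and at 49.8, 246 and 44.5 CPM in hippocampus, a log2 fold change of 4.56 ± 1.04 (SE) with an adjusted p of 0.105 in edgeR and 5.7e-04 in DESeq2. Abat, the GABA transaminase just before it, stood at 7.76, 13.8 and 4.52 CPM against 30.7, 64.4 and 35.9 CPM (adjusted p of 0.0396 in DESeq2). Both genes of GABA breakdown were separate by region. Gabbr2, a subunit of the GABA-B receptor, stood at 48, 4.31 and 90.2 CPM in cortex and at 0.0821, 12.4 and 1.18 CPM in hippocampus, and DESeq2 called it lower (adjusted p of 0.0473). Gabrb1, a GABA-A receptor subunit named after its values were seen, stood at 34.3, 29.1 and 49.2 CPM against 190, 223 and 182 CPM, a log2 fold change of 2.40 ± 0.56 (SE) with an adjusted p of 0.105 in edgeR.

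In the glycolysis, oxidative-phosphorylation and cholesterol lists the shares higher without overlap lay near the 10.4% of all genes. Glycolysis genes had a median of 0.42 with 3 of 22 higher without overlap, nuclear oxidative-phosphorylation genes a median of 0.62 with 4 of 29, and cholesterol and lipoprotein genes a median of 0.77 with 2 of 24. Pfkp, the platelet-type phosphofructokinase, stood at 8.27, 1.2 and 3.5 CPM in cortex and at 110, 9.94 and 30.9 CPM in hippocampus (adjusted p of 0.00514 in DESeq2), and its log2 fold change of 3.53 became 2.23 without hippocampus library 1. The 13 mitochondrially encoded mRNAs all had negative log2 fold changes (11 of 13 in limma-voom), with a median of -0.44 and no separate range. Of these, limma-voom called 2 lower, mt-Co1 among them at 40676, 32587 and 89181 CPM in cortex and 35546, 46716 and 27051 CPM in hippocampus (adjusted p of 0.0235). Over all genes tested limma-voom called 0.103% lower. The edgeR log2 fold change of mt-Co1 was -0.57 with all 6 libraries and -0.04 without cortex library 3. Of 37 genes for cytosolic ribosomal proteins 5 lay lower without overlap, against 4.25% of all genes, and the median of the 37 was -0.03. Rpl5, of the large subunit, had the lowest p of these, at 78, 178 and 181 CPM against 32.4, 33.5 and 36.4 CPM (adjusted p of 0.0579 in DESeq2).

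Immediate early factors, which neurons and glia induce within minutes of a stimulus or of dissociation, had a median of -0.71, with 6 of 24 lower without overlap and none higher. Limma-voom called 3 lower. Over all genes tested 4.25% lay lower without overlap, and limma-voom called 0.103% lower. Egr1, a zinc-finger factor, stood at 7696, 6861 and 5091 CPM in cortex and at 2700, 3811 and 6317 CPM in hippocampus (adjusted p of 0.705 in edgeR and 0.0417 in limma-voom). Jun, an AP-1 subunit, stood at 2067, 2287 and 1741 CPM against 643, 1094 and 1598 CPM (adjusted p of 0.695 in edgeR and 0.0452 in limma-voom). Atf3, a stress-induced factor, stood at 1599, 1358 and 1323 CPM against 805, 684 and 998 CPM (adjusted p of 0.798 in edgeR and 0.0448 in limma-voom). In CD51+ libraries Egr1 stood at no more than 143 CPM and Jun at no more than 50.9 CPM. The list sum moved with the microglial sum: hippocampus library 1 was lowest in both, at 7416 and 6634 CPM, and cortex libraries 1 and 2 were highest in both. The part of microglial RNA in these values was not tested.

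Genes that act with alpha-v integrin and TGF-beta had a median of 0.63, with 3 of 18 higher without overlap and none lower. DESeq2 called 1 of the 18 higher, near the 4.5% of all genes. Tgfb2, a ligand, stood at 0, 0 and 3.06 CPM in cortex and at 44, 33.7 and 4.44 CPM in hippocampus (adjusted p of 0.00867 in DESeq2). Without cortex library 3 the adjusted p of Tgfb2 was 0.00682 in edgeR. That library held its only cortex counts, so leaving it out widens the gap by construction. Itgb8, the beta-8 partner, overlapped, at 27.2, 29.8 and 57.6 CPM against 140, 151 and 36 CPM (adjusted p of 0.307 in edgeR). Among morphogen pathway genes, Bmpr1b, a BMP receptor, stood at 1.35, 0 and 20.9 CPM against 57.6, 208 and 64.8 CPM (adjusted p of 0.0257 in DESeq2). Without cortex library 3, its highest cortex value, the adjusted p of Bmpr1b was 0.00589 in edgeR, with the gap again widened by construction. The morphogen list as a whole had a median of -0.07 (0.52 in limma-voom), with 3 of 28 higher and 1 lower without overlap. Extracellular-matrix genes had a median of 0.87 with 5 of 19 higher, and axon-guidance genes a median of 1.01 with 3 of 23 higher and 1 lower. Slit2 and Lama2, described above, are on these lists. Synapse-organising genes had a median of 0.58 with 3 of 24 higher and 1 lower, and ion and water handling genes a median of 0.00 with 2 of 23 in each direction. Among NF-kappa-B feedback genes 1 of 20 was lower, at a median of -0.46, while the medians were, for heat-shock genes, -0.22 with 1 of 16 lower and, for glucocorticoid-responsive genes, 0.53 with 1 of 17 higher. Interferon and MHC class I genes had a median of -0.58, although the 2 of 11 with separate ranges were higher. Over all genes tested the shares were 10.4% higher and 4.25% lower. Near these lay the shares of axon-guidance (13% and 4.35%), morphogen (10.7% and 3.57%) and synapse-organising genes (12.5% and 4.17%). So did the lower shares of heat-shock (6.25%) and NF-kappa-B feedback genes (5%).

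Counts of separate ranges for several lists rested on single libraries, as did those for all genes, which were 17.6% higher and 9.47% lower without cortex library 3 and 16.7% and 8.6% without hippocampus library 3. Immediate early factors went from 6 of 24 lower to 13 without cortex library 3 and 10 without hippocampus library 3. Homeostatic microglial genes went from 5 of 18 lower to 8 and 10, in the same order. Heat-shock genes went from 1 of 16 lower to 6 and 3, and NF-kappa-B feedback genes from 1 of 20 to 3 and 6, with none higher in either list. All 16 heat-shock genes were negative with median-of-ratios scaling, against 12 of 16 with TMM. Glycolysis genes went from 3 of 22 higher to 9 and 4, oxidative-phosphorylation genes from 4 of 29 to 10 and 7, and cholesterol genes from 2 of 24 to 7 and 5. Subgranular-zone genes went from 4 of 11 higher to 4 and 7, whereas choroid plexus genes stood at 9 and 11 of 11 and the Gfap-rich astrocyte list at 9 and 9 of 17.

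The regional difference in CD51- was set beside that in CD51+, from separate libraries. These include cortex CD51+ library 3, with 58.4% mitochondrial ribosomal RNA, and the part of that library in the comparison was not tested. In CD51+ 951 genes lay higher in hippocampus without overlap (7.54%) and 753 lower (5.97%). Of the 1313 genes higher in CD51-, 162 (12.3%) lay higher and 67 (5.1%) lower in CD51+. Of the 536 lower in CD51-, 41 (7.65%) lay lower and 30 (5.6%) higher in CD51+. Across the 12613 genes, which are not independent replicates, the regional log2 fold changes of the 2 classes correlated at r = 0.10. Ttr, Slit2, Rsph4a and Slc4a5 stood higher in hippocampus in both classes and Chrdl1 lower in both, whereas Fstl1, Lama2 and Gfap overlapped in CD51+. The difference between the regional differences passed for no gene in edgeR (0 of 12613, 0%, smallest adjusted p 0.139), with 1583 genes at an unadjusted p under 0.05. DESeq2 called 522 and limma-voom 0, and edgeR called 42 without cortex library 3.

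**Figure D5:**
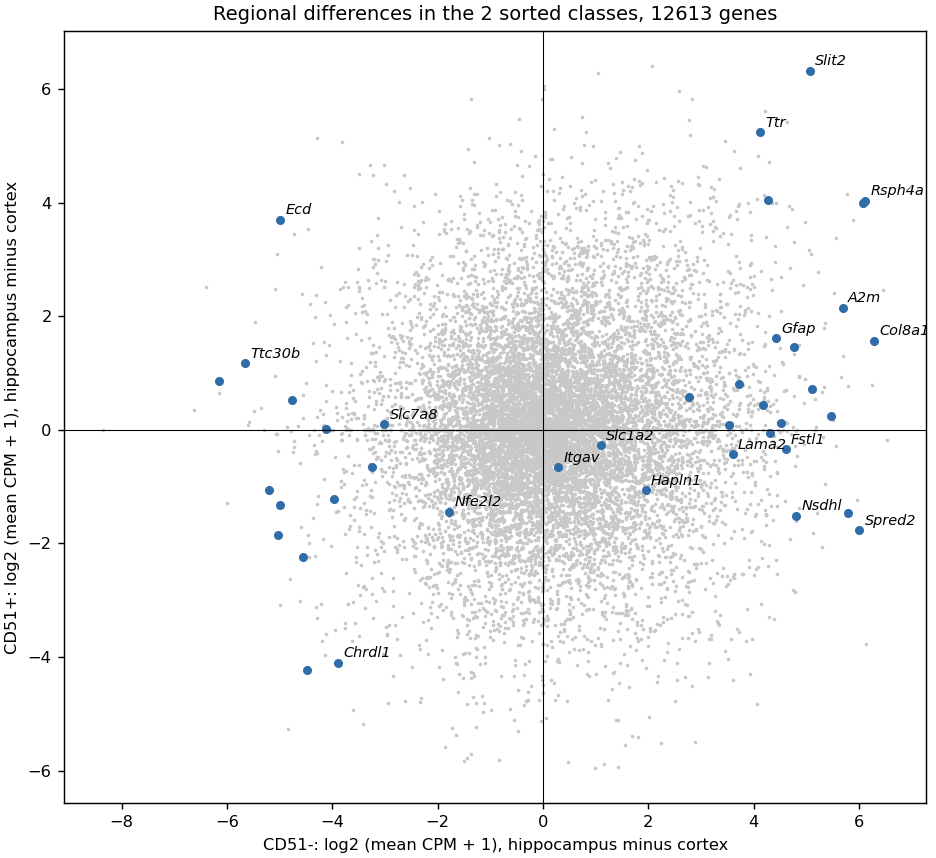
Difference in log2 (mean CPM + 1), hippocampus minus cortex, in CD51- (x axis) and CD51+ (y axis) for the 12613 genes tested, with named genes in blue. Chrdl1 lies low on both axes and Slit2 and Ttr high on both, while the cloud as a whole shows little slope, with r = 0.10 between the fitted log2 fold changes.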

How the data were processed

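RNA from sorted cells was extracted with a column kit and made into libraries from 10 ng with a high-sensitivity kit, then sequenced as paired 150-base reads, per the labels' protocols. The authors deposited raw counts of read pairs per gene, made with featureCounts 2.0.4 over GENCODE vM25 exons, unstranded and with primary alignments only, per the file headers, so overlapping genes on opposite strands cannot be told apart. STAR, mm10 and DESeq2 1.40.2 are named in the submitters' processing notes. Symbols were matched for 55141 of 55401 gene IDs.

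The 12 libraries were fitted together in edgeR 4.0.16 (R 4.3.3) with a term for each of the 4 groups, TMM scaling and a filter at a minimum count of 10 and a minimum total of 15. The quasi-likelihood F test was adjusted by Benjamini-Hochberg, with calls at an adjusted p under 0.05 and 8 residual degrees of freedom. DESeq2 1.42.0 and limma-voom (limma 3.58.1), other scalings and filters, a replicate block and leaving out each library were alternatives. The script was tested on simulated data. The permutation test used scipy 1.17.1. A gene with no count in a group was given a fold limit from 3 counts over the group, and counting intervals (95%) cover counting error only, since reads carry no molecular identifiers.

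Members and gene lists were chosen with earlier results of these data known. Genes named are Itgav, then in each direction up to 15 called genes by size of change, or, where fewer passed, the genes of lowest p whose ranges were separate and whose higher group averaged 20 CPM or more, then the leading members of each of 39 lists by p, up to 4 called and 2 more. Predicted genes, clone names, pseudogenes and immunoglobulin or T-cell receptor segments were left out of the genes taken in each direction. Other list members were chosen for their role after their values were seen. Some list members are not reported here.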

Additional observations from a re-analysis of the deposited data

Results flagged for a closer look

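In 6 genes reported here, the hippocampus libraries all lay on one side of the cortex libraries in CD51- and all on the other side in CD51+. None of these differences between the classes passed edgeR's quasi-likelihood interaction test after adjustment over 12613 genes. Of the 1313 genes higher in CD51-, 67 (5.1%) lay lower in CD51+, and of the 536 lower, 30 (5.6%) lay higher. Over all genes tested 5.97% lay lower and 7.54% higher in CD51+, so opposite order was no more frequent than this background. Hapln1, a link protein of perineuronal matrix, stood at 73.9, 7.67 and 90.4 CPM in cortex and 135, 291 and 248 CPM in hippocampus CD51-, and at 563, 527 and 334 CPM and 211, 291 and 177 CPM in CD51+, a difference of 3.04 on the log2 scale (adjusted p = 0.215). The fitted difference for Nsdhl was 12.34 (adjusted p = 0.139), which rests on cortex CD51- libraries with no count. For Ecd it was -12.92 (adjusted p = 0.139), with cortex CD51- library 2 at 0.719 CPM beside 53.8 and 51.6 CPM. Tyrobp, the microglial adaptor DAP12, differed by -3.12, the ribosomal-protein gene Rplp0 by -3.11 and Rpl15 by -2.07.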

How the results depend on the processing

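The count of genes called between hippocampus and cortex CD51- was 0 in edgeR and became 706 in DESeq2 (567 higher, 139 lower), 109 in limma-voom (96 higher, 13 lower), 112 with no filter on low counts, 19 with robust dispersions and 5 in the 6 CD51- libraries with a replicate block. It ranged from 0 to 68 when a library was left out, reaching 68 without cortex library 3 and 24 without hippocampus library 3. The count was also 0 with a replicate block in all 12 libraries and in the 6 CD51- libraries without a block. Same-numbered libraries deviated with correlations of -0.0203, -0.00419 and -0.0478, so no shared deviation was seen. With 3 libraries a group and a coefficient of variation of 1.28, this cannot tell whether same-numbered libraries came from the same animal. The count of genes whose regional difference differed between the classes was 522 in DESeq2, 146 with no filter and 1 with robust dispersions, and 0 to 42 when a library was left out. The log2 fold change of Itgav ranged from -0.11, without hippocampus library 2, to 0.56 when a library was left out. Of 98 other genes named by rule, 96 did not reverse in any alternative in which they were fitted. Among these, Ddx3y without cortex library 3 and Sst without hippocampus library 3 fell to a log2 fold change of 0.00. The 98 were chosen by p in the same data, which favours a kept direction and calls by the other tests. DESeq2 called 55 of the 98 and limma-voom 18. The log2 fold change of Rgs5 ranged from -2.49, without hippocampus library 1, to 4.46, and that of Zc3h12a from -4.36 to 1.34, without cortex library 2. The causes were not tested. Of 582 tested members of the 39 lists DESeq2 called 44 higher and 7 lower, against 4.5% and 1.1% of all genes. Limma-voom called 10 and 6 members, against 0.761% and 0.103% of all genes. The fit with no filter called 14 and 2, and robust dispersions 6 and 0. Without cortex library 3, 13 and 0 were called, and without hippocampus library 3, 5 and 0. In no other setting was a list member called. List medians for Notch and morphogen signalling and for neocortical and hippocampal excitatory neurons changed sign in limma-voom, which also used TMM scaling. The pericyte median did so in limma-voom and with the block, and the endothelium median with the block. The ion handling median, 0.00 in edgeR, was -0.14 with median-of-ratios scaling and 0.56 in limma-voom. The common coefficient of variation was 1.28 over 3 libraries a group.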
